A study of Homo sapiens with 2 samples.

Results

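The genes described here encode the 5 NF-κB subunits (NFKB1, NFKB2, RELA, REL and RELB) and 5 proteins of the IκB family (NFKBIA, NFKBIB, NFKBIE, NFKBIZ and BCL3). They were read through every probe set, meaning a group of short array probes for 1 transcript, that the platform annotation assigns to these 10 symbols. These are 22 of the 54675 probe sets on the array. Of the 22, 20 were assigned to 1 of the genes alone and covered 9 of the 19775 genes that have a probe set of their own. The other 2 were assigned to BCL3 and the microRNA gene MIR8085 together, so they are given separately and enter no count.

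The study asked which transcripts depend on T-bet, the transcription factor encoded by TBX21, in KG1, an established line from a human acute myeloid leukaemia whose cells resemble early progenitors. Cells of the group siRNA-Tbet received 1.98 µg of T-bet siRNA by electroporation, and cells of the group siRNAc received the same amount of a control siRNA. Both groups rested for 5 h and then received interleukin-18 (IL-18) at 10 ng/ml for 12 h, so no unstimulated or untransfected cells enter the comparison. Each group is 1 array of 1 cell line, so no value below has a replicate error, and the number of arrays limits the precision.

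NF-κB proteins act as dimers that bind κB sites in DNA. RELA, REL and RELB carry activation domains, whereas NFKB1 and NFKB2 encode precursors that are processed to the DNA-binding partners and that, unprocessed, hold other subunits back through ankyrin repeats. In unstimulated cells NFKBIA, NFKBIB and NFKBIE keep dimers in the cytoplasm. Signals such as IL-18, which acts through the adaptor MyD88, activate the IκB kinase (IKK), after which these inhibitors are phosphorylated and degraded. NFKBIZ and BCL3 are nuclear members of the IκB family that modulate transcription by bound dimers. Several of these genes, NFKBIA best known among them, are themselves induced by NF-κB. Control by degradation and nuclear entry of the proteins is not seen on an RNA array.

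Promoter sequences of the family are shown first, because NF-κB is known to act on several of its own genes, to place matches to its motif in the genes whose signals follow. The promoter sequences used here, from RefSeq start sites (GRCh38.p14), covered 8 of the 10 members, in 14 windows of 250 bases before a start. No window of full length was found among them under the symbols RELB and NFKBIE, so these genes were not searched. The canonical κB motif of 10 bases was searched on both strands, and overlapping matches were merged. It lay in 8 of the 14 windows and in 6 of the 8 genes, against 9.96% of 35116 such windows of all genes. The members' windows were rich in G and C, with a median of 68.8% against 58% for all windows. Among the 25030 windows with at least 48.4% G and C, the lowest value of a member, 12.7% held the motif. This cut-off does not match the members' median, so that share does not fully adjust for base composition. The 120 bases before the start of NFKB1 (chr4:102501239-102501358, plus strand), REL (chr2:60881454-60881573, plus strand) and NFKBIA (chr14:35404750-35404869, minus strand) are given 5′ to 3′ on the gene's strand, with the κB match in capitals.
NFKB1: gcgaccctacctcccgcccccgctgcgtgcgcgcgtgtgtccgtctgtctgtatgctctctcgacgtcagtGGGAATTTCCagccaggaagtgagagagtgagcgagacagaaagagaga
REL: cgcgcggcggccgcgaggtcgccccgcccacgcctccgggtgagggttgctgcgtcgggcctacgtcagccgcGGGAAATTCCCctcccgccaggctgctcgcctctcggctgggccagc
NFKBIA: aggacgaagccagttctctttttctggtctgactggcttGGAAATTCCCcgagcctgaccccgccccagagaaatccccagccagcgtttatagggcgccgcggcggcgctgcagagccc

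The matches began at -49 in NFKB1, -47 in REL and -81 in NFKBIA, counted back from the start site. NFKB2 and NFKBIB had matches before start sites that lie downstream of the gene's first listed start, and these are shown as 30 bases each, again with the match in capitals. The first of NFKB2 lies at chr10:102394462-102394491 and the second at chr10:102394490-102394519, both on the plus strand, and that of NFKBIB at chr19:38899932-38899961 on the plus strand.
NFKB2 site 1: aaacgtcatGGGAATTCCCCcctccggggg
NFKB2 site 2: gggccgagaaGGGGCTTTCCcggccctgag
NFKBIB: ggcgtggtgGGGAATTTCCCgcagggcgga

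A further start site of NFKB2 had 2 matches and each of the 2 start sites of NFKBIZ had 1. The windows of RELA (2 windows) and BCL3 (1 window) held no κB match. The sequence GGTGTGA, the core bound by T-box factors such as T-bet, was also searched on both strands and lay in 1 of the 14 windows, against 2.76% of all windows. That window belongs to NFKBIB, and the 30 bases around the match (chr19:38899880-38899909, plus strand) are shown with the core in capitals. A match in a window is a description of its letters and does not show binding.
NFKBIB T-box: tacgagggcggGGTGTGAgcgattcagcat

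The check of the design comes from TBX21, whose MAS5 signal in arbitrary units was 1839 with siRNA-Tbet and 3581 with siRNAc (log2 ratio -0.96). IFNG, the gene of interferon-γ and a known T-bet target, had 31243 with siRNA-Tbet and 35136 with siRNAc (log2 ratio -0.17, or -0.27 after quantile normalization and -0.25 with the trend of the ratio on signal removed). Of the markers chosen for KG1 or progenitor cells, CD34, HLA-DRA, PTPRC and ANPEP were bright on both arrays, with CD34 at 17130 with siRNA-Tbet and 15839 with siRNAc. MPO was near the floor, at 210 with siRNA-Tbet and 127 with siRNAc, and CD33 had no probe set of its own. Of 12 markers of other blood cells, 10 had a probe set of their own and 7 were above the floor, with 3 higher and 4 lower with siRNA-Tbet. Their signals summed to 29608 with siRNA-Tbet and 28833 with siRNAc, mostly from the T cell gene CD3D and the natural killer cell gene NKG7. Some dimmer ones differed more. The T cell marker CD4 had 29.1 with siRNA-Tbet, below that array's floor of 144, and 337 with siRNAc. With the low signal raised to the floor its log2 ratio was -1.22, on the 1 measured of its 2 probe sets. The natural killer cell marker NCAM1 had 550 with siRNA-Tbet and 862 with siRNAc (log2 ratio -0.65), and 2 of its 7 probe sets were measured. The other lower ones were the B cell marker MS4A1 (-0.35) and NKG7 (-0.10). Higher with siRNA-Tbet were the erythroid marker HBB, at 227 against 152 with siRNAc (0.58), and the T cell markers CD3E (0.25) and CD3D (0.23). The monocyte markers CD14 and CD163 and the T cell marker CD8A lay below the floor on both arrays. What part these other cell types' transcripts have in the values below was not tested.

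As a group, the NF-κB and IκB transcripts had nearly the same signal on both arrays. Of the 20 probe sets assigned to 1 member, 17 were measured, meaning above the median signal of an array (the floor) on at least 1 array. The floor was 144 for siRNA-Tbet and 146 for siRNAc. Their median log2 ratio of siRNA-Tbet over siRNAc was 0.0040, with 9 higher and 8 lower, against a median of -0.01 over all 23547 measured probe sets with 1 gene. No member probe set reached a 1.5-fold difference (0 higher and 0 lower of 17), beside 6.17% of all measured probe sets in either direction (2.86% higher and 3.31% lower). Within the members' own range of signal, which leaves out the dimmest probe sets, the share was 1.91% of 13382, so a count of 0 among 17 does not set the members apart. A log2 ratio of at least 0.32 in size was reached by 3 member probe sets, 1 higher and 2 lower, which is 17.6%, against 22.3% of all (10.3% higher and 12.1% lower). That share includes the dimmest probe sets and was not taken within the members' range of signal, so it does not show the members to differ less. In RNA from a whole culture, fewer cells that express a gene and less RNA per cell cannot be told apart. The median size of a member's log2 ratio without its sign was 0.09 (1.06-fold), against 0.12 over the probe sets in that range of signal.

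**Figure D1:**
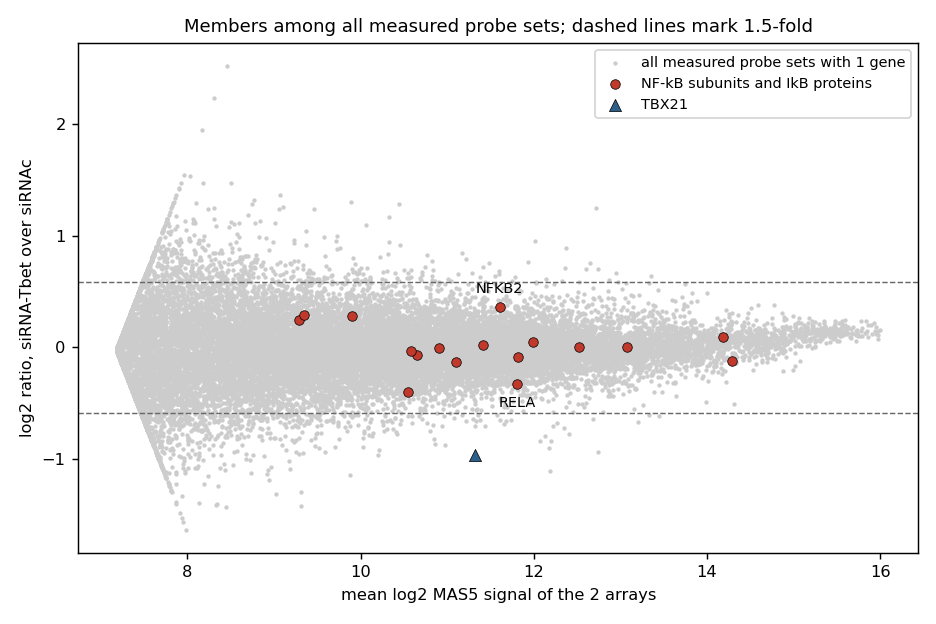
Log2 ratio of siRNA-Tbet over siRNAc (vertical axis) against the mean log2 signal of the 2 arrays (horizontal axis) for all 23547 measured probe sets with 1 gene (grey), the 17 measured member probe sets (red circles) and TBX21 (blue triangle). The member probe sets lie between -0.40 and 0.36, inside the dashed lines of 1.5-fold, and TBX21 lies at -0.96.

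The only available gauge of technical noise was the disagreement between probe sets of the same gene at similar signal, given here as an SD in log2 units. It was 0.40 in the dimmest of 10 bins of signal and 0.10 in the brightest, and it does not cover differences between cultures, extractions or hybridisations. Of the 17 member probe sets, 6 (35.3%) lay beyond 1 such SD from 0 and 3 (17.6%) beyond 2. The shares over all probe sets in the same signal range were 36.1% and 10.1%. The 3 beyond 2 SD were a probe set each of NFKB2, RELA and NFKBIB, and in each of these genes another probe set did not repeat the difference.

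**Figure D2:**
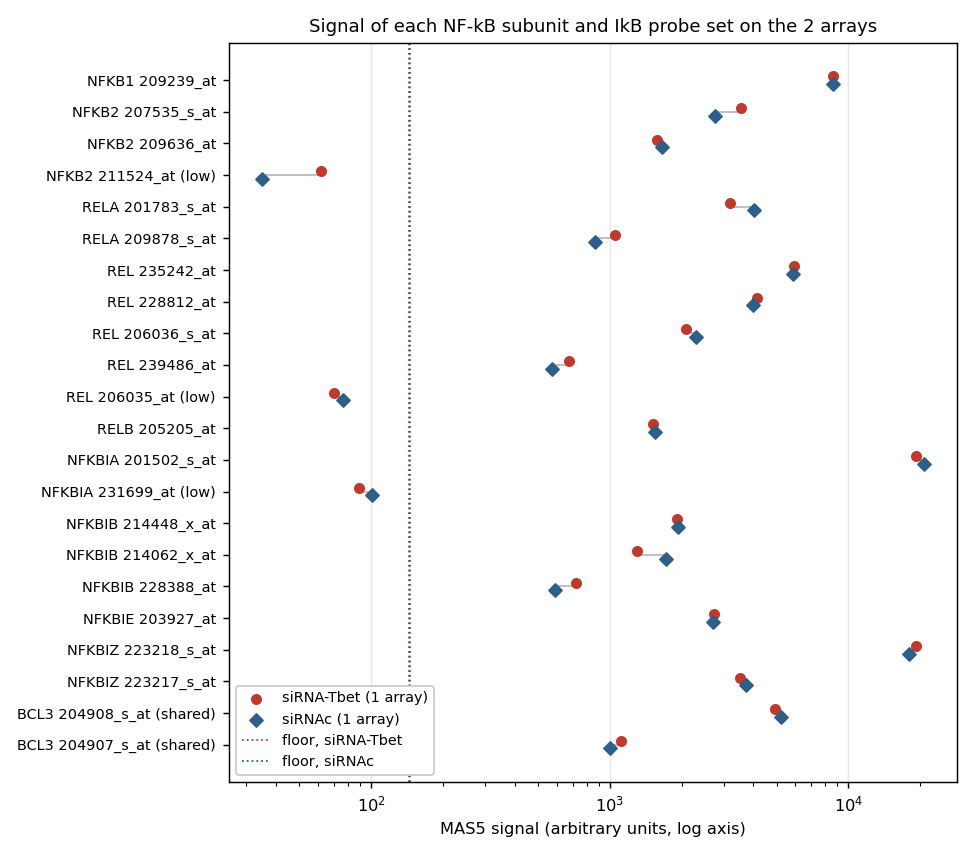
MAS5 signal (horizontal log axis, arbitrary units) of all 22 probe sets on the siRNA-Tbet array (red circles) and the siRNAc array (blue diamonds), with both floors dotted. The points of a probe set nearly coincide for NFKB1, RELB, NFKBIE and the brightest of REL. The 3 probe sets marked low lie below the floors, and the 2 marked shared are assigned to BCL3 and MIR8085.

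Among the subunits with an activation domain, RELA, the partner in the most common dimer, gave contrary readings. Its brighter probe set (201783_s_at) had 3200 with siRNA-Tbet and 4010 with siRNAc, a log2 ratio of -0.33 where the technical SD was 0.15. Its dimmer probe set (209878_s_at) had 1051 with siRNA-Tbet and 865 with siRNAc, a log2 ratio of 0.28 with a technical SD of 0.23. The probe sets differ by 0.61 on the log2 scale, so no direction can be given for RELA as a gene. Among the 2354 probe sets of its signal decile the brighter one lay at percentile 4.38, and the dimmer one lay at percentile 89.7 of its own decile.

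REL encodes c-Rel, the subunit best known from lymphocytes, and is read by 5 probe sets, of which 4 were measured. The brightest (235242_at) had 5897 with siRNA-Tbet and 5880 with siRNAc, a log2 ratio of 0.0040. The next (228812_at) had 4139 with siRNA-Tbet and 3993 with siRNAc. Both readings lay within the technical SD of 0.13 of 0. The others were 2097 with siRNA-Tbet against 2291 with siRNAc (206036_s_at, log2 ratio -0.13) and 678 with siRNA-Tbet against 573 with siRNAc (239486_at, log2 ratio 0.24), each within 1 technical SD of 0. The last (206035_at), at 69.9 with siRNA-Tbet and 76.2 with siRNAc, lay below the floor. RELB, the subunit of the alternative pathway that pairs with the product of NFKB2, had 1522 with siRNA-Tbet and 1553 with siRNAc on its single probe set, a log2 ratio of -0.03.

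The precursor genes differed from each other in how their probe sets read. NFKB1, with 1 probe set (209239_at), had 8654 with siRNA-Tbet and 8609 with siRNAc, a log2 ratio of 0.0076 at a technical SD of 0.10. NFKB2 had 3538 with siRNA-Tbet and 2757 with siRNAc on its brightest probe set (207535_s_at). That log2 ratio of 0.36 (1.28-fold higher) was the highest among the measured member probe sets and lay at percentile 97.3 of its signal decile. The other measured probe set of NFKB2 (209636_at) had 1573 with siRNA-Tbet and 1650 with siRNAc, a log2 ratio of -0.07. Another probe set (211524_at) had 62 with siRNA-Tbet and 34.9 with siRNAc, both below the floor. Its ratio without a floor (0.83 on the log2 scale) rests on signals where MAS5 values are least certain. The higher NFKB2 reading therefore comes from 1 of its 2 measured probe sets.

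**Figure D3:**
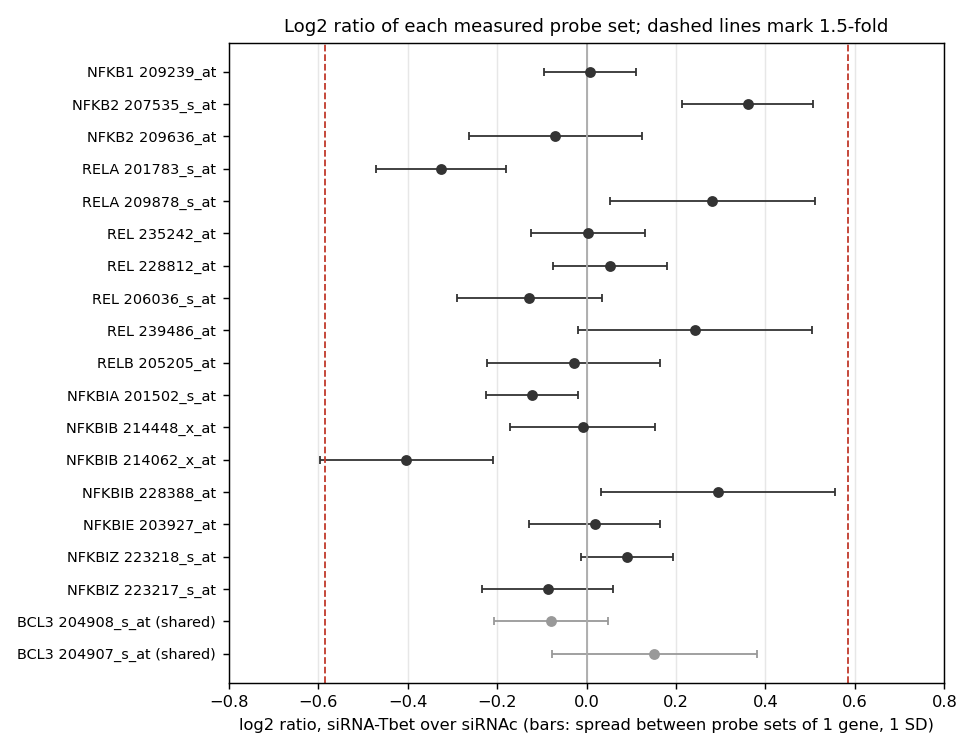
Log2 ratio of siRNA-Tbet over siRNAc for each measured probe set (points), with bars of 1 technical SD (disagreement between probe sets of a gene), and dashed lines at 1.5-fold. RELA and NFKBIB each have a probe set on either side of 0 (-0.33 and 0.28 for RELA, -0.40 and 0.29 for NFKBIB). Grey points are the probe sets shared by BCL3 and MIR8085.

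Of the cytoplasmic inhibitors, NFKBIA, the gene of IκBα and the fastest feedback inhibitor of the pathway, was read by a bright probe set (201502_s_at). This probe set gave 19113 with siRNA-Tbet and 20808 with siRNAc, a log2 ratio of -0.12 or a percent difference of -8.15. The technical SD at that signal was 0.10, and the decile median was 0.03, so the reading lay at percentile 12.1 of the 2355 probe sets of its decile. Its second probe set (231699_at) had 89 with siRNA-Tbet and 101 with siRNAc, below the floor on both arrays. Thus the 1 usable reading of NFKBIA was slightly lower with siRNA-Tbet, by about 1 technical SD on the deposited scale. Its log2 ratio was -0.18 after quantile normalization, and also -0.18 with the trend of the ratio on signal removed.

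NFKBIB, the gene of IκBβ, a slower-acting inhibitor, was read by 3 probe sets that spanned 0.70 on the log2 scale. One that can cross-hybridise (214062_x_at) had 1303 with siRNA-Tbet and 1722 with siRNAc, a log2 ratio of -0.40 and the lowest of the measured member probe sets. The other of that kind (214448_x_at) had 1916 with siRNA-Tbet and 1927 with siRNAc, a log2 ratio of -0.01 that turned to 0.01 under each of the 3 other scalings tried. The probe set without that suffix (228388_at) had 721 with siRNA-Tbet and 588 with siRNAc, a log2 ratio of 0.29. The readings of NFKBIB thus lie on both sides of 0, and the gene is uncertain. NFKBIE, the gene of IκBε, had 2736 with siRNA-Tbet and 2702 with siRNAc on its single probe set, a log2 ratio of 0.02.

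Of the nuclear IκB proteins among the members, NFKBIZ alone had probe sets of its own. NFKBIZ, the gene of IκBζ, which is needed for a set of secondary inflammatory genes, had 19182 with siRNA-Tbet and 18020 with siRNAc on its brighter probe set (223218_s_at, log2 ratio 0.09). Its other probe set (223217_s_at) had 3517 with siRNA-Tbet and 3736 with siRNAc (log2 ratio -0.09), so the readings fall on either side of 0 and each lies within 1 technical SD. The probe sets shared by BCL3 and MIR8085 had 4928 with siRNA-Tbet against 5207 with siRNAc (204908_s_at, log2 ratio -0.08) and 1118 with siRNA-Tbet against 1006 with siRNAc (204907_s_at, log2 ratio 0.15). Neither exceeded 1 technical SD, and no value can be given for BCL3 alone.

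The subunits and the inhibitors showed the same picture when taken apart. The 10 measured probe sets of the subunits had a median log2 ratio of 0.0058, with 6 higher and 4 lower. The 7 of the IκB family had a median of -0.0086, with 3 higher and 4 lower. Counting each gene once by its chosen probe set, 6 of 9 members were higher and 3 lower, and the median was 0.0076, against -0.02 over 12164 measured genes, of which 46.3% were higher. This count takes a side for RELA, NFKB2, REL, NFKBIB and NFKBIZ, whose measured probe sets lie on both sides of 0. It also includes NFKB1 (0.0076), REL (0.0040) and NFKBIE (0.02) as higher, though these were nearly equal on the 2 arrays.

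The machinery upstream of the family was followed through a list of 23 genes of the IKK complex, its activating kinases and adaptors, and the ubiquitin ligases that act on it or on IκB. Of these, 20 were measured on the chosen probe set, with 9 higher, 11 lower and a median log2 ratio of -0.03. On that probe set 0 reached 1.5-fold, against 4.92% of all measured genes in either direction (1.96% higher and 2.96% lower). The median turned to 0.01 when a gene was read by the median of its probe sets, and to 0.0023 with the floor at the 75th percentile. The catalytic subunits of the kinase were CHUK, with 4864 with siRNA-Tbet and 4512 with siRNAc, and IKBKB, with 9385 with siRNA-Tbet and 8845 with siRNAc. Both lay within 1 technical SD of 0 on the chosen probe set. The 2 other measured probe sets of IKBKB were also higher, at 0.14 and 0.23. CHUK and IKBKB were picked for their role after the values were seen.

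The highest gene of that list was BTRC, a substrate receptor of the ligase that marks phosphorylated IκB for degradation. It had 1807 with siRNA-Tbet and 1337 with siRNAc (log2 ratio 0.43, technical SD 0.19). Its 2 other measured probe sets were on the same side, at 0.07 and 0.26. TRAF6, a ubiquitin ligase downstream of MyD88, and MAP3K7, the kinase TAK1, followed at 0.16 and 0.15. At the low end were TAB1, a partner of TAK1, at -0.29, SHARPIN, a subunit of the linear ubiquitin ligase, at -0.25, and the kinase gene IKBKE at -0.14, whose second probe set had 0.14. TRAF6, TAB1 and IKBKE lay within 1 technical SD of 0 on the chosen probe set. The 3 other measured probe sets of MAP3K7 ran from -0.10 to 0.31. Beside 6.17% of all measured probe sets past 1.5-fold in either direction (3.31% lower), the list had 1 of its 43, and it was lower. It belongs to RBCK1, which encodes another subunit of the linear ubiquitin ligase and was singled out after its values were seen. That probe set had 555 with siRNA-Tbet and 861 with siRNAc (-0.63), another of RBCK1 had -0.52, and the chosen, brightest one had 6385 with siRNA-Tbet and 6527 with siRNAc (-0.03).

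A second list held 8 further regulators of the NF-κB and IκB proteins, all measured. Of these 2 were higher and 6 lower, where 46.3% of all measured genes were higher and 53.7% lower. Their median log2 ratio was -0.15, against -0.02 over all measured genes. On the chosen probe set 0 reached 1.5-fold, beside 4.92% of all measured genes in either direction, so a count of 0 among 8 does not set the list apart. The lower ones were led by TNIP2, an inhibitor of NF-κB signalling that binds ubiquitin, with 1551 with siRNA-Tbet and 1890 with siRNAc (log2 ratio -0.29). Its other 2 probe sets had -0.28 and 0.04. NKIRAS2, a small GTPase-like protein that binds IκB, had 1765 with siRNA-Tbet and 2071 with siRNAc (-0.23), and -0.14 on its second probe set. PDLIM2, which promotes the degradation of RELA, had -0.17, within the technical SD of 0.23. The remaining lower genes of the list also lay within 1 technical SD of 0. The higher members were NFKBIL1, at 513 with siRNA-Tbet and 421 with siRNAc (0.29, within the technical SD of 0.33), and COMMD1. COMMD1, which limits RELA on chromatin, had 0.13, about the size of its technical SD. The median was -0.05 with a floor at the 75th percentile.

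The last list held 32 well-known NF-κB targets other than the members, of which 25 were measured on the chosen probe set. Of these 10 were higher and 15 lower, where 46.3% of all measured genes were higher and 53.7% lower. Their median log2 ratio was -0.09, against -0.02 over all measured genes. On the chosen probe set 0 reached 1.5-fold, beside 4.92% of all measured genes in either direction. LTA, the gene of lymphotoxin-α, came closest on that reading, at 1130 with siRNA-Tbet and 1681 with siRNAc (-0.57, technical SD 0.19). CD40 and the chemokine gene CCL4 were also lower (-0.43 and -0.41). On the other side were PLAUR, the urokinase receptor gene, at 1837 with siRNA-Tbet and 1394 with siRNAc (0.40), and the cytokine genes CXCL8 (0.33) and IL6 (0.30). The 2 other probe sets of PLAUR had -0.47 and -0.19, and the second of CXCL8 had -0.02, so these directions depend on the probe set chosen. Beside 2.86% of all measured probe sets at least 1.5-fold higher and 3.31% lower, 1 of the 62 of the targets was higher and 1 lower. These belong to CFLAR, an inhibitor of cell death (0.63), and to CYLD, a deubiquitinase of the pathway (-0.69). Both were singled out after their values were seen. That CFLAR probe set had 226 with siRNA-Tbet and 140 with siRNAc, the latter below that array's floor of 146 and raised to it. The chosen probe set of CFLAR had -0.20, and 3 of the gene's 12 other measured probe sets were also lower. The chosen one of CYLD had -0.29, and 4 of its 6 others were also lower.

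**Figure D4:**
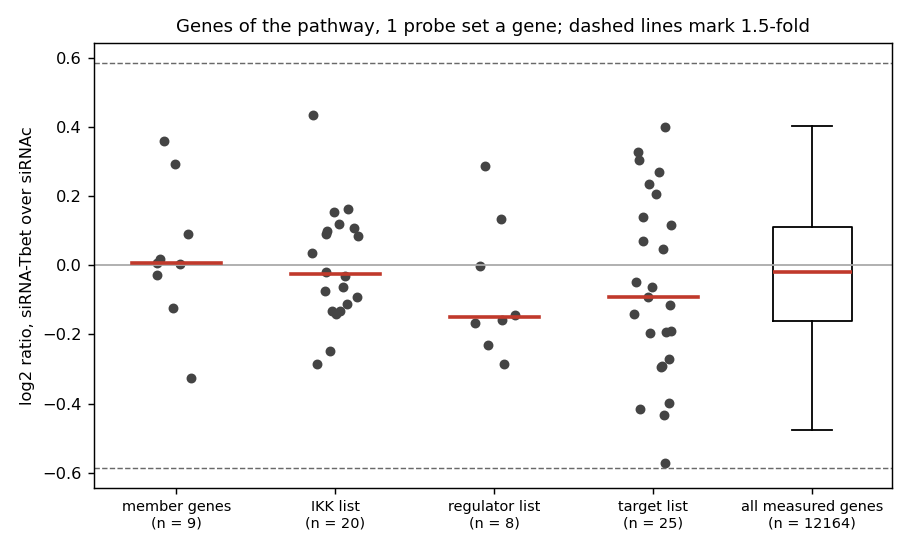
Log2 ratio of siRNA-Tbet over siRNAc for single genes (points, spread sideways at random) of the member genes and of the IKK, regulator and target lists, with red lines at the medians. The box on the right gives the quartiles of all 12164 measured genes with whiskers at percentiles 5 and 95. The medians are 0.0076, -0.03, -0.15, -0.09 and -0.02 from left to right, and no point of the 4 groups (chosen probe sets) lies outside the dashed lines of 1.5-fold.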

How the data were processed

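RNA of KG1 cells was measured on 1 Affymetrix 3′ expression array per group. Per the submitters' processing notes, the deposited intensity values come from MAS5 (version not stated), an algorithm that turns the matched and mismatched probes for a transcript into 1 linear signal; low signals are noisy and bright ones can be compressed. With 2% trimmed at either end, the deposited intensities averaged 1000 on both arrays, so they were not scaled further.

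Of 54675 probe sets, 41097 carried 1 gene in the platform annotation, 1801 carried several and 11777 are unnamed here; symbols were updated through Entrez numbers to RefSeq (GRCh38.p14), which matched 41043. Signals below the median of an array's non-control probe sets were raised to it before log2 ratios were taken, and a probe set above it on at least 1 array counted as measured. For lists and gene counts, a gene was read by its brightest probe set, avoiding the suffix _x_at where it had another. A gene whose chosen probe set lay below the floor was not counted as measured. CXCL2 and RNF31 were left out in this way, though each had a measured probe set with that suffix. With 1 array per group no test was run, and 1.5-fold served as a size rule. The technical SD is that of the differences in log2 ratio between 2 probe sets of 1 gene whose signals differ by less than 2-fold, over the square root of 2, in 10 bins of signal; on 54675 simulated probe sets it was recovered to within 15.8%. Python 3.11.15, pandas 2.3.3 and statsmodels 0.14.6 were used. Alternatives were other floors, scalings, probe sets and folds. The text names all member probe sets, TBX21, IFNG, markers, and up to 3 genes per direction from each list. Members and lists were chosen with earlier results of these data known, and the promoter search was added after the signals were seen.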

Additional observations from a re-analysis of the deposited data

How the results depend on the processing

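The median log2 ratio of the member probe sets ran from -0.0086 to 0.03 over all alternatives, and that of the member genes from 0.0015 to 0.03. Counting the probe sets shared by BCL3 and MIR8085 was an alternative chosen after seeing the data. The number of member probe sets at least 1.5-fold higher was 1 in place of 0 without any floor, and also 1 when the floor was the 25th percentile. That probe set was 211524_at of NFKB2, which these settings admit. With a log2 ratio of 0.32 as the size rule the counts were 1 higher and 2 lower. The regulator list had a median of -0.052 when the floor was the 75th percentile. At that floor the siRNA-Tbet signal of PDLIM2 (832) was raised to 901. Its log2 ratio was then -0.052 in place of -0.17 and was the list median, while NFKBIL1 fell below the floor on both arrays. Taking the median of all measured probe sets of a gene, NFKB2 had 0.15, RELA -0.02, NFKBIB -0.0086 and PLAUR -0.19. TBX21 stayed between -0.96 and -0.94. No paired analysis was possible because each group has 1 array. Dim probe sets limit what can be seen: below the floor no difference can be read, and without replicate arrays a difference of the size of RELA or NFKB2 cannot be set against the variation between cultures.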
